A study of Ovis aries with 6 samples.

Results

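The nuclei described here are fibroblast nuclei of the sheep rumen, 2479 of the 40419 nuclei kept from 6 droplet libraries (6.13%). They were chosen by detected genes. A nucleus had to have at least 500 genes, at most 10% mitochondrial UMIs (unique molecule counts) and at least 1 UMI in at least 4 of PDGFRA, LAMA2, FAP, TWIST2, CCBE1, COL12A1, ANTXR1 and TRPA1. It could have at most 1 of the smooth muscle genes MYH11, ACTG2, MYOCD and HHIP, at most 1 of the keratinocyte genes TP63, DSG1, DSC2 and COL17A1, and no UMI of PTPRC (leukocytes) or VWF (blood endothelium). At least 4 of the 8 fibroblast genes were found in 4752 kept nuclei, of which 768 failed the smooth muscle limit, 796 the keratinocyte limit and 1336 the limit on PTPRC and VWF, some on more than 1 count. Just inside the limit, 482 members had exactly 4 of the 8 genes, and just outside it 458 nuclei that met the other limits had 3. All 8 genes were found in 509 members.

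The lining of the rumen is a keratinised epithelium that rests on connective tissue made by fibroblasts. These cells secrete the collagens, elastic fibres and proteoglycans of that tissue. They also release growth factors, chemokines and complement proteins that reach epithelium, vessels and leukocytes, and under tension or injury they can switch on contractile genes. PDGFRA is a receptor for platelet-derived growth factor, LAMA2 a laminin chain, FAP a surface protease and TWIST2 a mesenchymal transcription factor.

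The libraries came from male lambs, 3 of a group named MGHS and 3 of a group named MGNS, 1 library per animal. The labels do not spell out either name and give no age, and the series is about grazing sheep with supplementary feeding. Each tissue piece came from the ventral sac of the rumen, was chopped and frozen, and gave nuclear RNA for 10x Genomics sequencing. The labels call the sample rumen epithelial cells, but it also held nuclei with genes of the rule. As a description, LAMA2 averaged 4358 CPM (UMIs per 1000000 UMIs of the summed nuclei) in the members and 8.24 CPM in keratinocyte nuclei, and PDGFRA 683 CPM in the members and 0.995 CPM in keratinocyte nuclei.

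The libraries held 38903073 to 59997793 UMIs in MGHS and 34418856 to 54819907 in MGNS. The summed fibroblast nuclei held 2306906, 2021056 and 2275091 UMIs in MGHS 1 to 3, against 1235304, 1334506 and 1878194 in MGNS 1 to 3. The median fibroblast nucleus held 4216, 3842 and 3812 UMIs in MGHS 1 to 3, against 5150, 4678 and 3108 in MGNS 1 to 3, with overlap between the groups. Kept nuclei of different libraries shared 188 barcodes over 15 library pairs, and members shared 0. MGHS 3 stood apart in how its members were spread over the clusters described below. It gave 343 of the 420 nuclei of cluster 3, whose leading genes are keratinocyte genes. It gave 14 of the 477 nuclei of cluster 2 (MGHS 1 gave 137 and MGHS 2 gave 127) and 1 of the 260 nuclei of cluster 5 (MGHS 1 gave 83 and MGHS 2 gave 134). The summed level of 10 keratinocyte markers in the members was 421, 375 and 654 CPM in MGHS 1 to 3, against 304, 294 and 346 CPM in MGNS 1 to 3, where keratinocyte nuclei themselves held 5644 to 6139 CPM in MGHS and 5466 to 6075 CPM in MGNS. Droplet libraries carry free RNA, and COL1A2 had a UMI in 17.8, 11.3 and 32.5% of keratinocyte nuclei in MGHS 1 to 3 and 8.64, 11.0 and 7.05% in MGNS 1 to 3, where the fibroblast nuclei had 97.4, 98.1 and 99.1% in MGHS 1 to 3 and 96.3, 95.8 and 90.7% in MGNS 1 to 3.

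The 25 genes with the highest level in the members relative to all other kept nuclei held 7 of the 8 genes of the rule and a set of matrix genes that the rule did not read. These values come from nuclei chosen on the same counts, so they are a description without a test. COL3A1, a fibrillar collagen, averaged 5403 CPM over the 6 animals (range 2820 to 8607) against 290.3 CPM in all other kept nuclei. COL1A2 and COL1A1, the chains of type I collagen, averaged 3527 and 1874 CPM against 199.8 and 107 CPM. The matrix genes MGP, DCN, FBLN1 and ABI3BP averaged 3103, 2290.0, 678 and 1733 CPM against 187, 146, 34.8 and 83.5 CPM. MGP codes for an inhibitor of calcification, DCN for the proteoglycan decorin and FBLN1 for an elastic fibre protein. SLIT3, a guidance ligand, and C7, a terminal complement component, were also among the 25, with 1899 and 588 CPM against 121 and 28.2 CPM. Mural or myofibroblast nuclei with up to 3 of the 8 fibroblast genes were nearer to the members. There COL3A1, COL1A2 and COL1A1 averaged 1209, 781 and 393 CPM. MGP, DCN, FBLN1 and ABI3BP averaged 968, 835, 115 and 208 CPM, and SLIT3 and C7 1080 and 98.0 CPM.

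Clustering of the members gave 9 clusters. Clusters 6 to 9 were left out in some fits for their leading genes, but clusters 3 and 4 also carried markers of other cells and were left out only in fits given for each of them. The genes of a cluster are a description, since the clusters were made from them. Cluster 1 (659 nuclei) was adventitial-like: 6 of 8 adventitial fibroblast markers were at least 2-fold above the other members, summing to 3613 against 1143 CPM. It was led by PCOLCE2, ADAMTS19, SCARA5, PAPPA2 and ADAMTSL1, and also by the heparan sulphate proteoglycan GPC6 (4475 against 298 CPM) and the growth factor IGF1 (926 against 62.6 CPM). Cluster 2 (477 nuclei) was led by KCNIP1, DNER, CADM2 and the bone morphogenetic protein BMP5 (448 against 88.9 CPM), and cluster 5 (260 nuclei) by COL6A5, ADAMTS1 and the growth factor PDGFD (2886 against 499.9 CPM). Neither had 3 markers of a list at 2-fold, so neither was named.

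Cluster 4 (403 nuclei) was led by CXCL13, ERBB4, CCL19, JCHAIN, CXCL8 and CXCL10. The chemokine genes CXCL13, CCL19, CXCL8 and CXCL10 had 210.8, 324, 157 and 85.6 CPM against 0.769, 22.4, 14.1 and 4.51 CPM in the other members. The receptor gene ERBB4 and the plasma cell gene JCHAIN had 157 and 117 CPM against 4.61 and 7.47 CPM. The cluster also had 3 of 6 macrophage markers at 2-fold (178 against 27.8 CPM summed), and 2 of 5 markers of lymphoid reticular fibroblasts, so it was not named. Cluster 3 (420 nuclei, 81.7% from MGHS 3) was led by CA1, S100A2, KRT5 and LGALS7, with 6 of 10 keratinocyte markers at 2-fold. Whether this reflects free RNA was not tested. The 8 genes of the rule were spread unevenly. PDGFRA ranged over clusters 1 to 5 between 469 CPM in cluster 1 and 1040 CPM in cluster 4, and TWIST2 between 159 CPM in cluster 1 and 871 CPM in cluster 2.

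Clusters 6 to 9, 260 nuclei in all, were set apart after their leading genes were seen. Cluster 6 (108 nuclei) was pericyte-like, with 8 of 8 pericyte markers at 2-fold, RGS5 at 1763 against 11.0 CPM and PDGFRA at 91.6 CPM. Cluster 7 (70 nuclei) had 7 of 8 smooth muscle or myofibroblast markers at 2-fold, and also 6 of 7 blood endothelial markers. Cluster 8 (63 nuclei) was led by DUSP14, MYZAP, CRISP3 and SAMD8, had 3 of 10 keratinocyte markers at 2-fold and stayed unnamed, and its median of 11126 UMIs compared with 3297 to 4720.5 in clusters 1 to 5. SAMD8 had 2176, 1473 and 763 CPM in MGHS 1 to 3, against 98.0, 88.4 and 268 CPM in MGNS 1 to 3 over all members. Cluster 9 (19 nuclei) was lymphatic endothelial-like, with 5 of 5 markers at 2-fold and 5 of 7 blood endothelial ones. Clusters 6 to 9 made up 13.2, 11.9 and 10.9% of the members in MGHS 1 to 3, against 5.56, 10.4 and 8.61% in MGNS 1 to 3. The groups did not overlap (two-sided exact permutation test, p = 0.1, the smallest that 3 against 3 animals allow). The clusters were made from these same counts and picked after they were seen, so this value is a description. Taken alone, cluster 8 did not overlap, at 4.54, 4.32 and 2.45% in MGHS 1 to 3, against 0.463, 1.15 and 0.916% in MGNS 1 to 3. Clusters 6, 7 and 9 overlapped between the groups. The share of nuclei and the tests over genes in fibroblasts were also given without clusters 6 to 9, on 2219 nuclei.

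**Figure D1:**
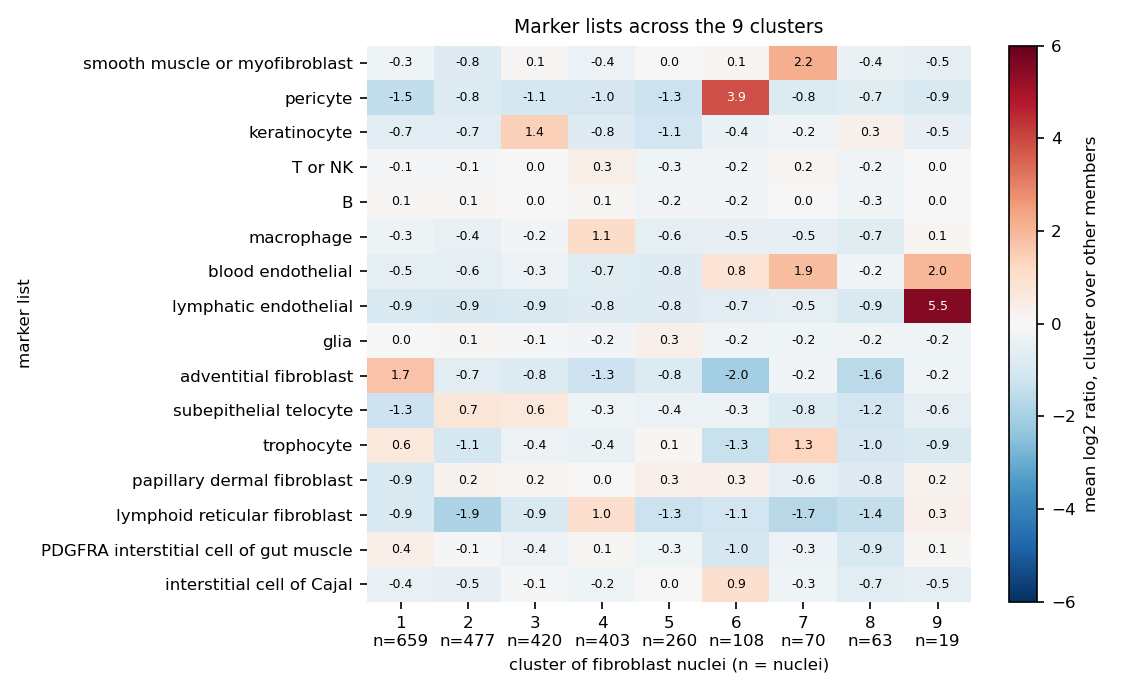
Mean log2 ratio of each marker list (rows) in each cluster of fibroblast nuclei (columns, with the number of nuclei), cluster over all other members, red higher and blue lower. The adventitial list is at 1.7 in cluster 1, the keratinocyte list at 1.4 in cluster 3, the pericyte list at 3.9 in cluster 6 and the lymphatic endothelial list at 5.5 in cluster 9.

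The share of nuclei that were fibroblasts did not differ between the groups beyond the spread of the animals. It was 8.15, 7.29 and 6.12% in MGHS 1 to 3, against 4.63, 3.29 and 7.65% in MGNS 1 to 3, and MGNS 3 lay within the range of MGHS. The means were 7.18 ± 1.02% in MGHS and 5.19 ± 2.24% in MGNS (SD, n = 3 each, two-sided exact permutation test, p = 0.3). Since the rule counts detected genes, each nucleus was also thinned to 1500 UMIs, which gave 7.86, 6.77 and 6.61% in MGHS 1 to 3 and 4.68, 3.83 and 7.30% in MGNS 1 to 3 (exact permutation p = 0.3). The thinned count left out 3854 of the 40419 nuclei, 428 to 1069 a library in MGHS and 329 to 721 in MGNS.

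**Figure D2:**
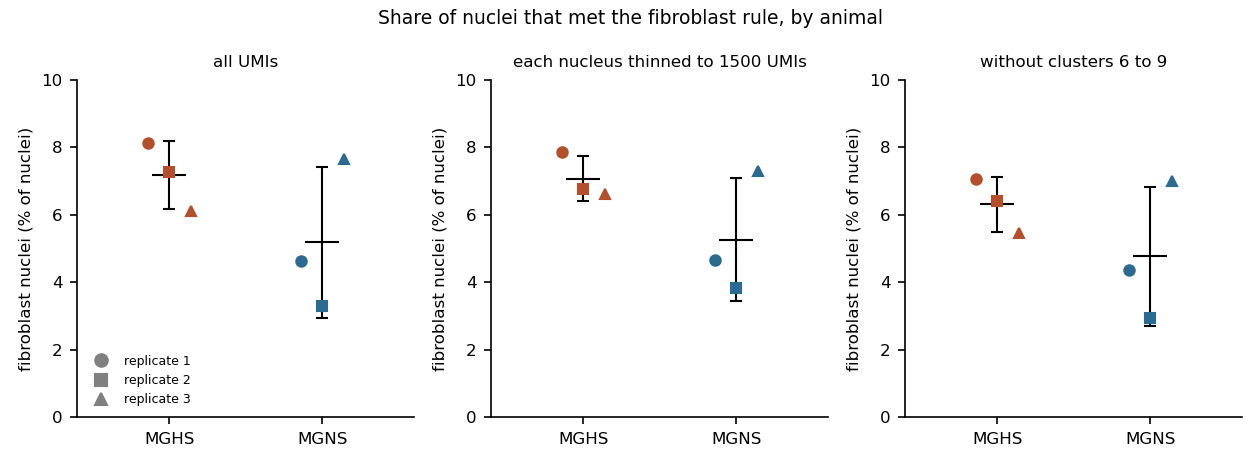
Percent of nuclei that met the fibroblast rule in each animal, with all UMIs (left), with each nucleus thinned to 1500 UMIs (centre) and without clusters 6 to 9 (right). Points are animals, bars the mean and SD of 3. MGNS 3 lies among the MGHS animals in each panel.

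Expression in fibroblast nuclei differed between the groups for a small set of genes. UMIs were summed per animal and tested with edgeR's quasi-likelihood test over 11701 genes, with Benjamini-Hochberg adjustment. At an adjusted p under 0.05, 40 genes (0.342% of those tested) were called, 22 higher in MGHS (0.188%) and 18 lower (0.154%), and in all 40 the groups did not overlap. Without overlap between the groups were 20.7% of all genes tested, and 14.1% had an unadjusted p under 0.05. The median log2 fold change over all genes tested was 0.04. Group means below are given ± SD over the 3 animals. Leaving out MGHS 1, 2 or 3 gave 11, 1 and 168 calls, and leaving out MGNS 1, 2 or 3 gave 10, 4 and 18. All 40 kept their direction in each of these 6 fits. Groups that do not overlap leave little room for another outcome, so this adds no support. Without clusters 6 to 9, 37 of 11018 genes were called (0.336%), 16 higher (0.145%) and 21 lower (0.191%), of which 24 were among the 40, and the 35 of the 40 that were tested there had the same direction. Leaving out cluster 3 as well ended every call: 0 of 10375 genes were called by edgeR, with 1152 at an unadjusted p under 0.05 and a smallest adjusted p of 0.0516. That fit rested on 369, 393 and 130 nuclei in MGHS 1 to 3, against 191, 226 and 490 in MGNS 1 to 3. Leaving out cluster 4 and clusters 6 to 9 gave 23 calls of 10634 genes (0.216%), 7 higher (0.0658%) and 16 lower (0.15%), on 371, 393 and 437 nuclei in MGHS 1 to 3, against 134, 91 and 390 in MGNS 1 to 3. Of the 40, 9 were called there: STC1, CRISPLD1 and IRAG1 higher, and C3, C1R, NFIL3, LOC101119706, LOC101121216 and LOC105604171 lower. The 35 of the 40 that were tested in both of these fits had the same direction in each. These nuclei were part of the main sums, so the shared direction is no separate support.

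**Figure D3:**
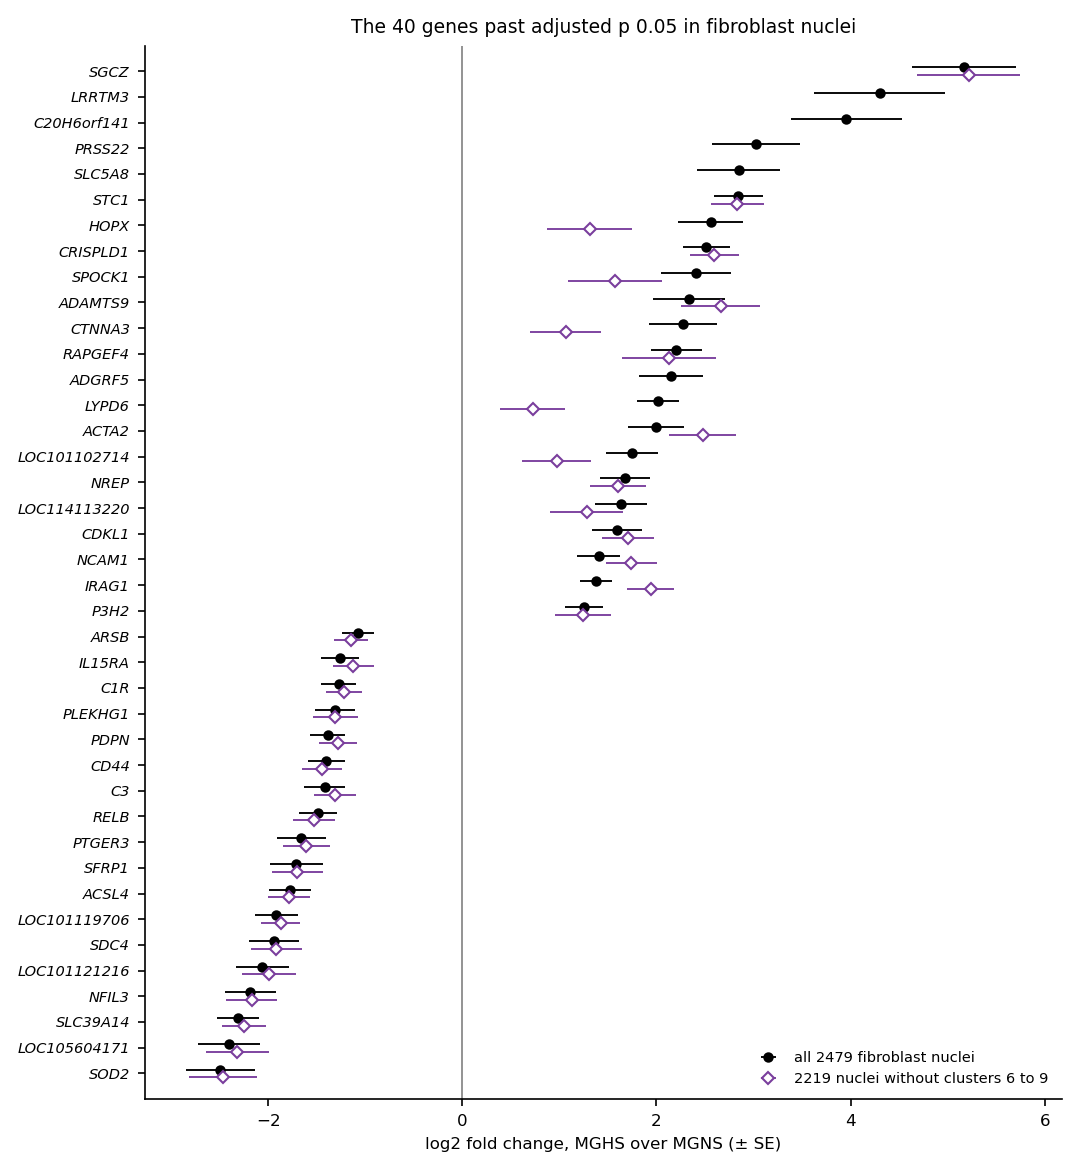
Log2 fold change in MGHS over MGNS with its SE for the 40 called genes, from all members (filled circles) and without clusters 6 to 9 (open diamonds, absent where the gene was not tested there). The lower genes hold their values in both fits, whereas HOPX, SPOCK1, CTNNA3, LYPD6 and LOC101102714 move towards 0.

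Among secreted proteins, STC1 and CRISPLD1 were higher in MGHS. STC1, which codes for the secreted hormone stanniocalcin, had 45.1, 41.1 and 46.6 CPM in MGHS 1 to 3, against 5.67, 7.49 and 5.86 CPM in MGNS 1 to 3. The MGHS animals were alike and all far above the MGNS animals (log2 fold change 2.84, SE 0.25, adjusted p = 0.0123, edgeR). It was called in 5 of 6 fits that left out 1 animal, with an adjusted p of 0.0501 without MGHS 2. CRISPLD1, a secreted protein with cysteine-rich and LCCL domains, had 50.7, 49.97 and 72.1 CPM in MGHS 1 to 3, against 10.5, 9.74 and 10.6 CPM in MGNS 1 to 3 (log2 fold change 2.51, SE 0.24, adjusted p = 0.0123, edgeR). The groups did not overlap, and the call was missed without MGHS 2 (adjusted p = 0.0501) and without MGNS 2 (adjusted p = 0.0589). The clusters differed: STC1 was at 76.4 CPM in cluster 1 and between 5.13 and 20.6 CPM in clusters 2 to 5, whereas CRISPLD1 was at 0.380 CPM in cluster 1 and between 16.9 and 95.9 CPM in clusters 2 to 5.

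SGCZ, a sarcoglycan of the dystrophin complex that links cytoskeleton and matrix, had the largest fold change of the 40. It had 223, 93.5 and 216 CPM in MGHS 1 to 3, against 0.810, 5.99 and 7.45 CPM in MGNS 1 to 3 (log2 fold change 5.16, SE 0.54, adjusted p = 0.0183, edgeR). All MGHS animals were above all MGNS animals, with MGHS 2 lowest of its group. It had a UMI in 7.13, 3.67 and 4.14% of fibroblast nuclei in MGHS 1 to 3 and 0.463, 0.769 and 1.47% in MGNS 1 to 3. In keratinocyte nuclei, with median depths of 6832.5 to 8990.0 UMIs, the shares were 1.09, 0.642 and 1.89% in MGHS 1 to 3 and 2.03, 0.937 and 1.95% in MGNS 1 to 3, and each MGNS animal had a lower share in its fibroblast nuclei than in its keratinocyte nuclei. Its level averaged 4.75 CPM in MGNS fibroblasts and 2.12 CPM in MGNS keratinocytes. Its level was 408 CPM in the adventitial-like cluster 1, which it helped to define, and at most 50.8 CPM in clusters 2 to 5. The call was missed without MGNS 2 (adjusted p = 0.0654). It was also missed by limma-voom and with the replicate number as a block. Without clusters 6 to 9 and cluster 3 or cluster 4, SGCZ was not called either (adjusted p = 0.0878 and 0.0560, edgeR).

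**Figure D4:**
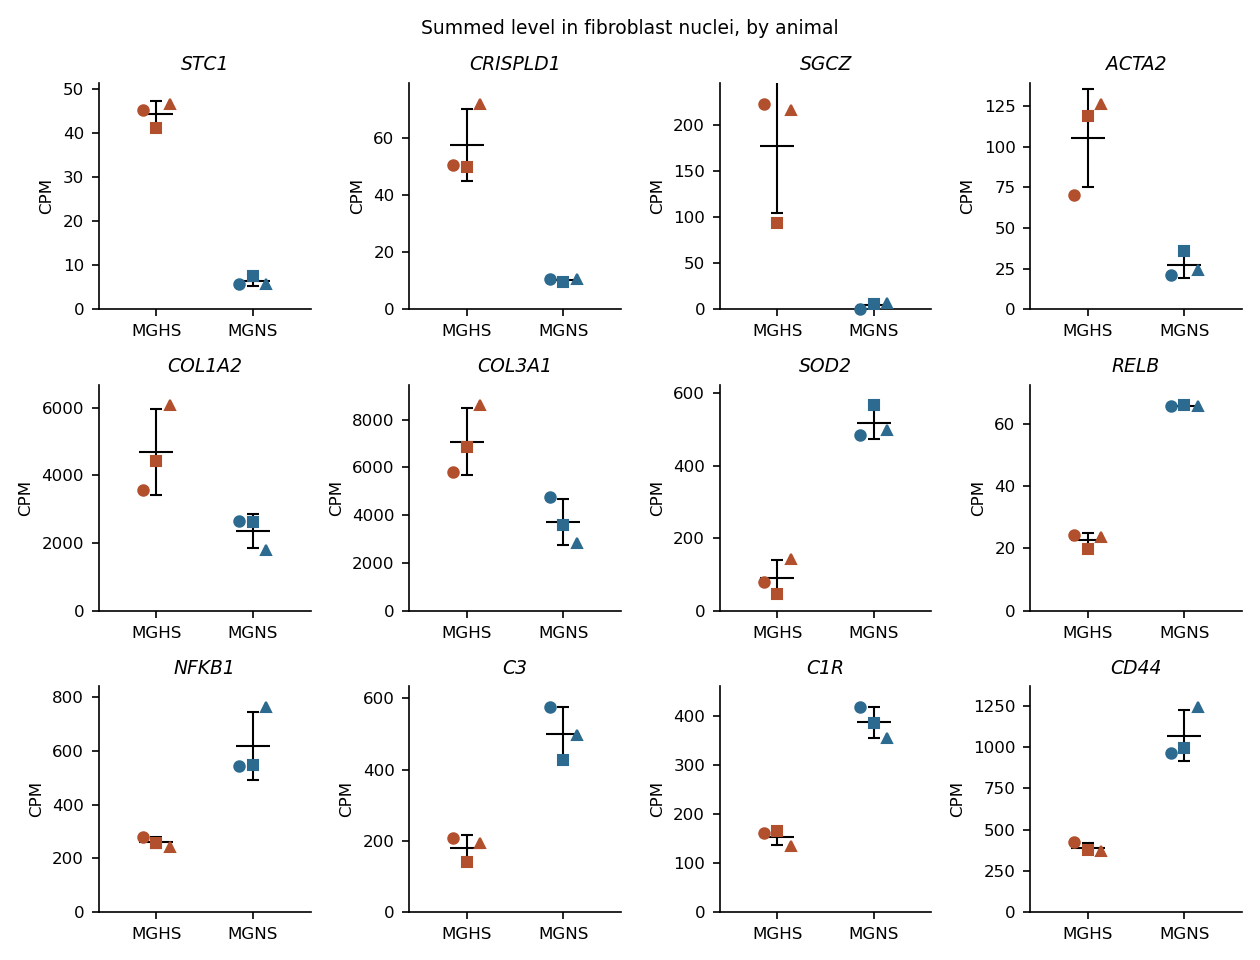
Level in summed fibroblast nuclei (CPM, axes from 0) of 12 genes in each animal, MGHS left and MGNS right, with the mean and SD of 3. Circle, square and triangle mark replicates 1, 2 and 3. The groups do not overlap in any panel, but COL1A2, COL3A1 and NFKB1 did not pass the adjusted threshold.

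The fibrillar collagens had higher values in MGHS without any of them passing the threshold. All 8 tested members had a log2 fold change above 0, where 54.2% of all genes tested did, with a median of 0.73. Of the 8, 5 had an unadjusted p under 0.05 with a higher level (8.56% of all genes), and none was called. COL1A2 had 3579, 4430.4 and 6078 CPM in MGHS 1 to 3, against 2659, 2627 and 1788 CPM in MGNS 1 to 3, and COL3A1 had 5796, 6846 and 8607 CPM in MGHS 1 to 3, against 4748, 3601 and 2820.3 CPM in MGNS 1 to 3. The groups did not overlap for either, and MGHS 3, the animal with the highest level of both, was also the one with the highest level of keratinocyte markers. Their log2 fold changes were 1.03 (SE 0.26, adjusted p = 0.129) and 0.97 (SE 0.26, adjusted p = 0.150) by edgeR. Of 17 other collagens tested 0 were called, and 4 had an unadjusted p under 0.05, all with a higher level (8.56% of all genes). COL7A1, the collagen of anchoring fibrils, averaged 52.9 ± 6.3 CPM in MGHS and 24.7 ± 4.9 CPM in MGNS (log2 fold change 1.14, SE 0.22, adjusted p = 0.0669, edgeR). Of 17 listed collagen processing genes 0 were called, and 3 had an unadjusted p under 0.05, all with a higher level (8.56% of all genes). P3H2, a collagen hydroxylase outside that list, was among the 40 calls, with means of 109 CPM in MGHS and 47.3 CPM in MGNS. It was not called without clusters 6 to 9. LOX, the enzyme that cross-links collagen and elastin, averaged 239 ± 48 CPM in MGHS and 120.5 ± 18 CPM in MGNS (log2 fold change 1.03, SE 0.19, adjusted p = 0.0617, edgeR) and was called without clusters 6 to 9 (adjusted p = 0.0449).

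Elastic fibre genes showed values in both directions. Of 16 tested 0 were called, 2 had an unadjusted p under 0.05 with a higher level (8.56% of all genes) and 5 with a lower one (5.54%). LTBP2, a microfibril protein, had 11.3, 6.43 and 19.8 CPM in MGHS 1 to 3, against 56.7, 52.5 and 47.9 CPM in MGNS 1 to 3, with no overlap (log2 fold change -2.01, SE 0.35, adjusted p = 0.0543, edgeR), and it was called without clusters 6 to 9 (adjusted p = 0.0449). EFEMP1, a fibulin, averaged 355 ± 27 CPM in MGHS and 693 ± 59 CPM in MGNS, and the microfibril protein LTBP1 408 ± 73 CPM in MGHS and 815 ± 21 CPM in MGNS (adjusted p = 0.0657 and 0.0816, edgeR). FBN2, a fibrillin, averaged 343 ± 65 CPM in MGHS and 151 ± 59 CPM in MGNS (log2 fold change 1.24, SE 0.31, adjusted p = 0.129, edgeR).

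Among 16 proteoglycans and related surface proteins tested, NCAM1 was higher (0.188% of all genes were) and SDC4 lower (0.154% were). SDC4, the heparan sulphate proteoglycan syndecan 4, had 43.8, 49.5 and 67.3 CPM in MGHS 1 to 3, against 163, 290.0 and 182 CPM in MGNS 1 to 3 (log2 fold change -1.94, SE 0.26, adjusted p = 0.0312, edgeR). The groups did not overlap. NCAM1, a cell adhesion molecule, averaged 96.3 ± 24 CPM in MGHS and 37.4 ± 2.5 CPM in MGNS (log2 fold change 1.40, SE 0.22, adjusted p = 0.046, edgeR). GPC3 averaged 319.6 ± 9.3 CPM in MGHS and 175 ± 18 CPM in MGNS and did not pass (adjusted p = 0.0572, edgeR). Of 13 matrix proteases and inhibitors, ADAMTS9, a protease of the proteoglycan versican, was called, with 61.1, 125 and 189 CPM in MGHS 1 to 3, against 22.7, 27.0 and 26.1 CPM in MGNS 1 to 3 (log2 fold change 2.34, SE 0.37, adjusted p = 0.04998, edgeR). MGHS 3 was highest, and all MGHS animals exceeded all MGNS animals. SDC4 stayed called without MGHS 3 and without MGNS 1, NCAM1 without MGHS 3, and ADAMTS9 without MGHS 1 and without MGHS 3, and none of them in the other fits that left out 1 animal (adjusted p up to 0.111, 0.138 and 0.143).

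Of the contractile genes, ACTA2 was higher in MGHS and the others had higher values without passing. ACTA2, the smooth muscle actin that marks myofibroblasts, had 70.7, 119 and 127 CPM in MGHS 1 to 3, against 21.0, 36.0 and 24.5 CPM in MGNS 1 to 3 (log2 fold change 2.00, SE 0.29, adjusted p = 0.0434, edgeR). All MGHS animals were above all MGNS animals, and the call held without MGHS 1 or MGHS 3 and was missed in the other 4 such fits (adjusted p up to 0.129). All 11 contractile genes tested had a log2 fold change above 0 (54.2% of all genes), with a median of 0.62. Of the 11, 6 had an unadjusted p under 0.05, all higher (8.56% of all genes), and ACTA2 was the 1 called higher (0.188% of all genes). The tropomyosin TPM2 averaged 59.7 ± 25 CPM in MGHS and 18.3 ± 4.9 CPM in MGNS and the myosin light chain MYL9 37.1 ± 12 CPM in MGHS and 19.7 ± 5.6 CPM in MGNS (adjusted p = 0.0719 and 0.229, edgeR), and MYL9 overlapped between the groups. Cluster 7, with smooth muscle or myofibroblast markers, had the highest ACTA2 level of the 9 clusters (459 CPM), followed by cluster 6 (197 CPM) and cluster 5 (178 CPM). Without clusters 6 to 9, ACTA2 was still called (log2 fold change 2.47, adjusted p = 0.0293, edgeR), and it was not called when cluster 3 (adjusted p = 0.107) or cluster 4 (adjusted p = 0.212) was left out as well. The summed level of 8 smooth muscle or myofibroblast markers overlapped between the groups, with 126, 231 and 178 CPM in MGHS 1 to 3 and 115, 122 and 144 CPM in MGNS 1 to 3.

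Among genes of innate immunity, RELB was lower in MGHS fibroblasts and most of its list had lower values. Of 18 cytokine, chemokine and NF-kB genes tested, 1 was called lower (0.154% of all genes), 11 had an unadjusted p under 0.05 with a lower level (5.54% of all genes) and none with a higher one, and the median log2 fold change was -0.84. RELB, a subunit of the NF-kB transcription factors, had 24.3, 19.8 and 23.7 CPM in MGHS 1 to 3, against 65.6, 65.9 and 65.5 CPM in MGNS 1 to 3 (log2 fold change -1.49, SE 0.19, adjusted p = 0.0309, edgeR). The animals of each group were close to each other and the groups well apart. NFKB1, another subunit, had 281, 256 and 241 CPM in MGHS 1 to 3, against 542, 546 and 763 CPM in MGNS 1 to 3, also without overlap, and missed the threshold (log2 fold change -1.20, SE 0.20, adjusted p = 0.0538, edgeR), which it passed without clusters 6 to 9 (adjusted p = 0.0449). The interleukin 1 receptor gene IL1R1 averaged 165 ± 26 CPM in MGHS and 376 ± 74 CPM in MGNS (adjusted p = 0.0572, edgeR). OSMR, the oncostatin M receptor, averaged 115 ± 25 CPM in MGHS and 256 ± 60.3 CPM in MGNS (adjusted p = 0.0876, edgeR). The chemokine gene CXCL8 averaged 14.95 ± 16 CPM in MGHS and 71.5 ± 32 CPM in MGNS (adjusted p = 0.232, edgeR). Leaving out cluster 4 as well as clusters 6 to 9, RELB and NFKB1 did not pass (adjusted p = 0.211 and 0.0999, edgeR). IL15RA, which presents interleukin 15 and stands outside the list, was called lower, with 25.5 ± 1.1 CPM in MGHS and 63.1 ± 6.6 CPM in MGNS (log2 fold change -1.26, SE 0.20, adjusted p = 0.046, edgeR).

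Markers of leukocytes moved with these genes in part. The summed level of 4 B cell markers in the members was 3.90, 4.45 and 4.40 CPM in MGHS 1 to 3, against 19.4, 10.5 and 14.9 CPM in MGNS 1 to 3, and the groups did not overlap. None of these 4 was at 0 over all members. JCHAIN, the joining chain of plasma cell antibodies and no part of that list, averaged 5.16 CPM in MGHS and 66.2 CPM in MGNS, and was among the leading genes of cluster 4. The 7 T or NK markers in the files, 1 of them at 0, summed to 28.6, 26.7 and 49.2 CPM in MGHS 1 to 3, against 52.6, 53.2 and 36.7 CPM in MGNS 1 to 3. The 6 macrophage markers in the files, 0 of them at 0, summed to 38.1, 63.8 and 80.9 CPM in MGHS 1 to 3, against 62.3, 49.5 and 29.8 CPM in MGNS 1 to 3. The groups overlapped for both of these lists, and the part of such markers in the lower values of the immune and complement genes was not tested.

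Of the complement genes, C1R and C3 were lower in MGHS. Of 8 tested, these 2 were called (0.154% of all genes were called lower), 7 had an unadjusted p under 0.05 with a lower level (5.54% of all genes), and the median log2 fold change was -1.34. C3, the central component of the cascade, had 209, 142 and 194 CPM in MGHS 1 to 3, against 576, 427 and 496 CPM in MGNS 1 to 3 (log2 fold change -1.42, SE 0.21, adjusted p = 0.046, edgeR). C1R, a protease of the classical pathway, had 163, 166 and 136 CPM in MGHS 1 to 3, against 420.1, 387 and 356 CPM in MGNS 1 to 3 (log2 fold change -1.27, SE 0.18, adjusted p = 0.0422, edgeR). In both, every MGHS animal was below every MGNS animal. C3 had a UMI in 49.5, 35.4 and 40.3% of fibroblast nuclei in MGHS 1 to 3 and 75.5, 72.7 and 62.6% in MGNS 1 to 3, where keratinocyte nuclei had 4.66, 4.44 and 6.24% in MGHS 1 to 3 and 6.61, 4.42 and 4.70% in MGNS 1 to 3. C7 had 195, 241 and 200.4 CPM in MGHS 1 to 3, against 1328, 283 and 1283 CPM in MGNS 1 to 3 (adjusted p = 0.117, edgeR). SERPING1, the inhibitor of C1R, averaged 59.2 ± 10.2 CPM in MGHS and 164 ± 87 CPM in MGNS (adjusted p = 0.150, edgeR). CFD, an alternative pathway protease, had the only positive value, with 53.4 ± 12 CPM in MGHS and 48.2 ± 13 CPM in MGNS (adjusted p = 0.795, edgeR). RELB, C3, C1R and IL15RA were called without MGHS 3 and in none of the other 5 fits that left out 1 animal (adjusted p between 0.0654 and 0.158).

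**Figure D5:**
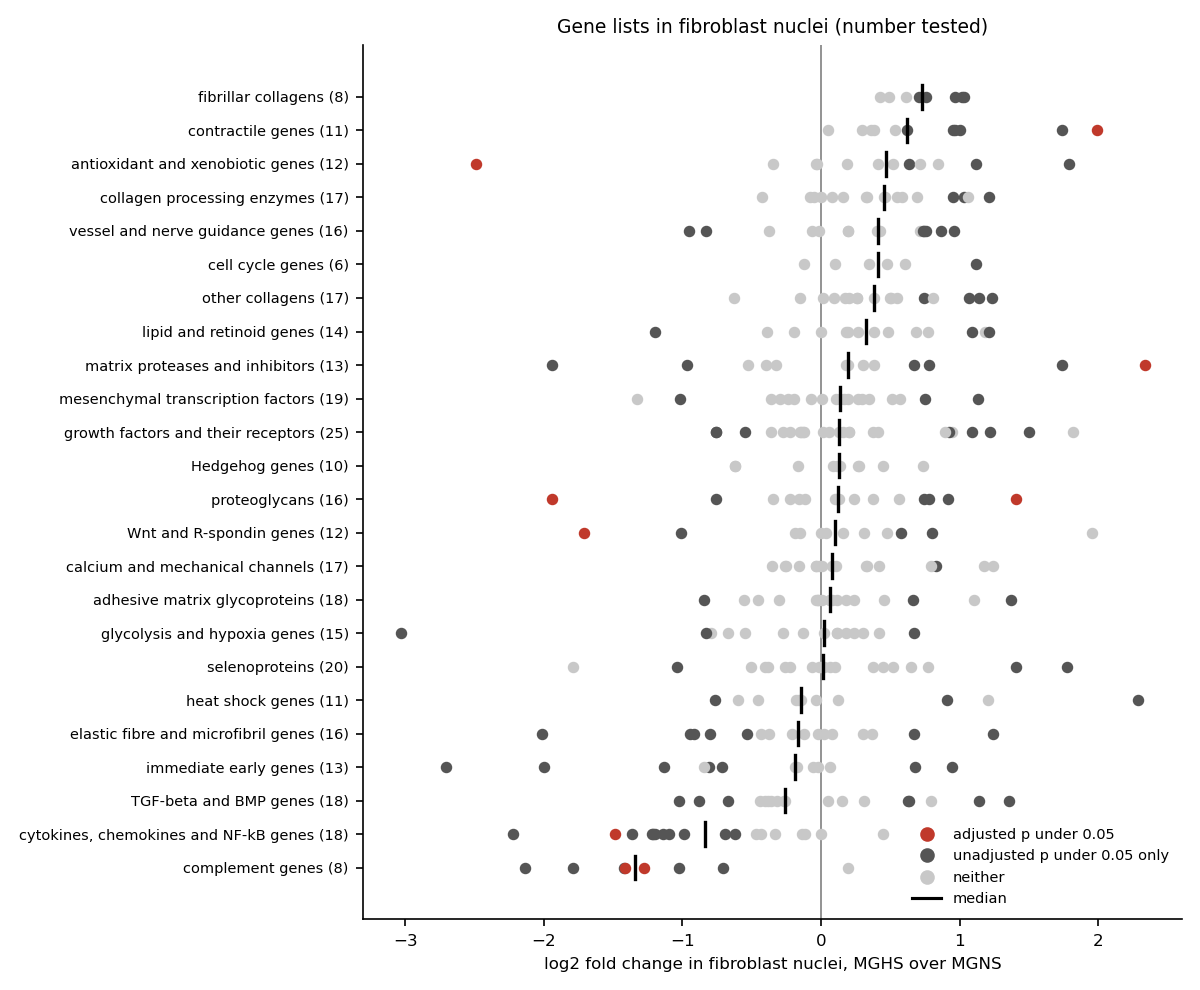
Log2 fold change in MGHS over MGNS of every tested member of 24 gene lists in fibroblast nuclei, with the list median as a bar. Red points passed adjusted p 0.05 and dark points only unadjusted p 0.05. The complement and cytokine lists lie lowest (medians -1.34 and -0.84), and the fibrillar collagens and contractile genes highest (0.73 and 0.62).

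SOD2, SLC39A14, NFIL3 and ACSL4 were also called lower. SOD2, the mitochondrial superoxide dismutase, had 79.3, 46.0 and 144 CPM in MGHS 1 to 3, against 485, 567 and 499 CPM in MGNS 1 to 3 (log2 fold change -2.49, SE 0.35, adjusted p = 0.0434, edgeR). SLC39A14, a transporter of zinc, manganese and iron, had 27.7, 23.8 and 32.5 CPM in MGHS 1 to 3, against 171, 143 and 117 CPM in MGNS 1 to 3 (log2 fold change -2.31, SE 0.22, adjusted p = 0.0123, edgeR). NFIL3, a transcription factor, averaged 22.1 ± 2.8 CPM in MGHS and 103 ± 35 CPM in MGNS (log2 fold change -2.18, SE 0.26, adjusted p = 0.0255, edgeR). ACSL4, an enzyme that activates polyunsaturated fatty acids, averaged 153 ± 21 CPM in MGHS and 541 ± 132 CPM in MGNS (log2 fold change -1.78, SE 0.22, adjusted p = 0.0258, edgeR). For each of these genes all MGHS animals were below all MGNS animals. SLC39A14 was missed only without MGHS 2 among the 6 fits that left out 1 animal (adjusted p = 0.0638), and SOD2 was called only without MGHS 3 (adjusted p up to 0.132 in the other 5). NFIL3 was missed without MGHS 1, MGHS 2 or MGNS 2 (adjusted p up to 0.0836), and ACSL4 without MGHS 1, MGHS 2, MGNS 1 or MGNS 3 (adjusted p up to 0.0972).

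The surface proteins CD44, PDPN and PTGER3 were lower in MGHS. CD44, the hyaluronan receptor, had 424, 375 and 373 CPM in MGHS 1 to 3, against 963, 994 and 1245 CPM in MGNS 1 to 3 (log2 fold change -1.40, SE 0.19, adjusted p = 0.0319, edgeR). PDPN, the mucin-type protein podoplanin, averaged 94.1 ± 14 CPM in MGHS and 254 ± 17 CPM in MGNS (log2 fold change -1.38, SE 0.18, adjusted p = 0.0309, edgeR), and PTGER3, a prostaglandin E2 receptor, 327 ± 15 CPM in MGHS and 1068 ± 321 CPM in MGNS (log2 fold change -1.66, SE 0.25, adjusted p = 0.046, edgeR). SFRP1, a secreted Wnt inhibitor and the 1 call among 12 Wnt genes tested (0.154% of all genes were called lower), averaged 47.0 ± 10.3 CPM in MGHS and 158 ± 49.9 CPM in MGNS (log2 fold change -1.71, SE 0.27, adjusted p = 0.0488, edgeR). ARSB and PLEKHG1 and the protein-coding genes LOC101119706, LOC101121216 and LOC105604171, which have no name in the gene table, complete the 18 lower calls. LOC101121216 averaged 550.5 ± 152 CPM in MGHS and 2366 ± 528 CPM in MGNS and LOC105604171 320.2 ± 136 CPM in MGHS and 1752 ± 128 CPM in MGNS. CD44 and PDPN passed only without MGHS 3 among the fits that left out 1 animal (adjusted p up to 0.144 and 0.118), PTGER3 also without MGNS 1 (up to 0.144) and SFRP1 also without MGNS 3 (up to 0.158).

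Many of the lower genes peaked in 1 or 2 of the clusters. SOD2 was at 762 CPM in cluster 4 and 282 CPM in cluster 1, and between 30.4 and 158 CPM in clusters 2, 3 and 5. RELB, NFKB1, C3, SLC39A14, SDC4, PDPN, CD44, PTGER3, SFRP1 and ACSL4 were also highest in cluster 4 among clusters 1 to 5, and C1R and NFIL3 in cluster 1. C7 was highest in cluster 1 (1487 CPM). The groups differed in where their members lay: cluster 4 held 31, 15 and 36 members of MGHS 1 to 3, against 70, 142 and 109 of MGNS 1 to 3. These counts are a description with no test, since cluster 4 was formed in part by genes that differ between the groups, and how much of a group difference rests on the mix of clusters was not tested as such.

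Values within subsets of clusters differed from gene to gene. Within the adventitial-like nuclei alone (50 to 241 an animal) SOD2 was at 76.1, 56.6 and 94.3 CPM in MGHS 1 to 3, against 447, 321 and 538 CPM in MGNS 1 to 3. In clusters 2 to 5 together, which include cluster 4, it was at 85.9, 48.8 and 173 CPM in MGHS 1 to 3, against 541, 649.7 and 492 CPM in MGNS 1 to 3. Without clusters 4 and 6 to 9 it was at 45.1, 43.0 and 128 CPM in MGHS 1 to 3, against 278, 302 and 389.9 CPM in MGNS 1 to 3 (log2 fold change -2.16, SE 0.39, adjusted p = 0.0773, edgeR). The groups did not overlap for SOD2 in any of these subsets. ACSL4 overlapped in the adventitial-like nuclei, with 139, 100.1 and 153 CPM in MGHS 1 to 3, against 1113, 130.2 and 685 CPM in MGNS 1 to 3. Of the 18 lower calls, 17 were tested in the adventitial-like nuclei and 5 were called there, SOD2, CD44, SDC4, SFRP1 and LOC105604171. SLC39A14, NFIL3, ACSL4, PDPN, C1R, C3 and PTGER3 were among the 12 that were not (adjusted p between 0.0622 and 0.207 for these 7, edgeR). Without clusters 4 and 6 to 9, C3 and C1R were called (log2 fold change -1.36 and -1.42, adjusted p = 0.0293 for both, edgeR), and so was NFIL3 (log2 fold change -2.01, adjusted p = 0.0293). SLC39A14, CD44, PTGER3, SFRP1, SDC4, PDPN and ACSL4 were not called there (adjusted p between 0.0535 and 0.221).

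The higher calls included genes whose own level was higher in other cells. HOPX, PRSS22, SLC5A8, C20H6orf141, SPOCK1, LYPD6, LOC101102714 and LOC114113220 had higher mean levels in keratinocyte nuclei of both groups than in fibroblast nuclei of the same group. HOPX, a homeodomain protein, averaged 121 ± 39 CPM in MGHS and 21.1 ± 6.4 CPM in MGNS fibroblasts. It averaged 355 CPM in MGHS and 123 CPM in MGNS keratinocyte nuclei, and its level was 981 CPM in cluster 8. CTNNA3, an alpha catenin, and LRRTM3, a neuronal adhesion protein, were at 5525 and 335 CPM in the pericyte-like cluster 6, and at most 21.8 and 3.80 CPM in clusters 1 to 5. Without clusters 6 to 9 none of these 10 genes was called, 4 because they were no longer tested (C20H6orf141, PRSS22, SLC5A8 and LRRTM3). LYPD6 moved to a log2 fold change of 0.72 there (adjusted p = 0.419), against 2.02 with all members. RAPGEF4, NREP, P3H2, IL15RA and PLEKHG1 were also not called there, and ADGRF5, which was at 277 CPM in cluster 6 and at most 5.58 CPM in clusters 1 to 5, was not tested. P3H2 was at 476 CPM in cluster 6 and at most 94.2 CPM in clusters 1 to 5. It too had a higher mean level in keratinocyte nuclei of both groups than in fibroblast nuclei of the same group. CDKL1, a kinase, was called in both fits, with 26.1 ± 1.8 CPM in MGHS and 8.80 ± 1.4 CPM in MGNS over all members.

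IRAG1, a regulator of calcium release in contractile cells, stayed called without clusters 6 to 9. It had 181, 168 and 161 CPM in MGHS 1 to 3, against 69.6, 72.7 and 61.2 CPM in MGNS 1 to 3 (log2 fold change 1.38, SE 0.17, adjusted p = 0.0258, edgeR), and without those clusters the log2 fold change was 1.94 (adjusted p = 0.0159). It passed only without MGHS 3 among the fits that left out 1 animal (adjusted p up to 0.102). The 13 genes that were called only without clusters 6 to 9 included MAP2, FRMD4A and CCN1 with higher levels and NFKB1, LTBP2 and TEAD4 with lower ones. CCN1, a matricellular protein, averaged 573 ± 151 CPM in MGHS and 229 ± 29 CPM in MGNS over all members (log2 fold change 1.37, SE 0.23, adjusted p = 0.0543, edgeR).

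Signals that fibroblasts send to epithelium and vessels gave no further call. Of 25 growth factor and receptor genes 0 were called, 4 had an unadjusted p under 0.05 with a higher level and 3 with a lower one (8.56% and 5.54% of all genes). FGF10, a growth factor for epithelium, averaged 260.3 ± 76 CPM in MGHS and 143 ± 18 CPM in MGNS, and IGF1 204 ± 19 CPM in MGHS and 356 ± 81 CPM in MGNS (adjusted p = 0.164 and 0.155, edgeR). Of 18 TGF-beta and BMP genes 0 were called. BMP5 averaged 189 ± 25 CPM in MGHS and 76.2 ± 36 CPM in MGNS, and the BMP inhibitor GREM1 365 ± 89.8 CPM in MGHS and 767 ± 334 CPM in MGNS (adjusted p = 0.124 and 0.199, edgeR). Of 16 vessel and nerve guidance genes 0 were called. SLIT2 averaged 433 ± 61 CPM in MGHS and 868 ± 192 CPM in MGNS and ADAMTS3, which activates VEGF-C, 107 ± 4.1 CPM in MGHS and 197 ± 2.3 CPM in MGNS (adjusted p = 0.117 and 0.0572, edgeR). VEGFC itself averaged 216 ± 101 CPM in MGHS and 105 ± 15 CPM in MGNS (adjusted p = 0.178, edgeR).

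Stress and housekeeping lists were largely without calls. Of 20 selenoprotein genes 0 were called. SELENOW had 41.6, 65.8 and 95.4 CPM in MGHS 1 to 3, against 21.9, 17.2 and 21.3 CPM in MGNS 1 to 3, without overlap (log2 fold change 1.78, SE 0.31, adjusted p = 0.0543, edgeR). GPX1 averaged 80.4 ± 54 CPM in MGHS and 30.9 ± 2.7 CPM in MGNS, with MGHS 3 at 143 CPM (adjusted p = 0.183, edgeR). Of 12 antioxidant and xenobiotic genes SOD2 was the 1 called (0.154% of all genes were called lower). None was called among 13 immediate early, 15 glycolysis and hypoxia, 11 heat shock, 10 Hedgehog, 14 lipid and retinoid, 18 adhesive glycoprotein, 6 cell cycle and 17 calcium and mechanical channel genes, or 19 mesenchymal transcription factors. Immediate early genes, which respond to tissue handling, had a median of -0.19. Of the 13 tested, 2 had an unadjusted p under 0.05 with a higher level (8.56% of all genes) and 5 with a lower one (5.54%). The 19 listed genes summed to 659, 785 and 769 CPM in MGHS 1 to 3, against 836, 822 and 892 CPM in MGNS 1 to 3, without overlap. FOS averaged 8.10 ± 4.7 CPM in MGHS and 33.3 ± 15 CPM in MGNS, and JUN 125 ± 37 CPM in MGHS and 66.9 ± 28 CPM in MGNS (adjusted p = 0.117 and 0.224, edgeR). HSPA1A had 211, 51.5 and 373 CPM in MGHS 1 to 3, against 29.95, 18.7 and 81.5 CPM in MGNS 1 to 3, with overlap. IGFBP5 averaged 53.5 ± 17 CPM in MGHS and 41.1 ± 26 CPM in MGNS (adjusted p = 0.742, edgeR). Of the 18 genes of the rule 13 were tested and 0 were called.

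The adventitial-like nuclei and the other fibroblast clusters were also fitted apart, after their values were seen. In the adventitial-like nuclei alone, 20 of 5997 genes were called (0.334%), 14 higher and 6 lower, and 9 of them were among the 40. That fit rested on 118, 117 and 79 nuclei in MGHS 1 to 3, against 54, 50 and 241 in MGNS 1 to 3. STC1 had 133, 144 and 172 CPM there in MGHS 1 to 3, against 10.2, 20.3 and 7.39 CPM in MGNS 1 to 3. Higher there but not among the 40 were FBN2, which averaged 201 CPM in MGHS and 38.7 CPM in MGNS, and the secreted protease inhibitor PI15, with 279.9 CPM in MGHS and 80.4 CPM in MGNS. THSD4, a microfibril protein, averaged 166 CPM in MGHS and 38.8 CPM in MGNS, and BCHE, a cholinesterase, 418 CPM in MGHS and 151 CPM in MGNS. SGCZ and ADAMTS19 passed too but had helped to define the cluster. In clusters 2 to 5 together 1 of 9651 genes was called (0.0104%), CRISPLD1, with 81.4, 80.7 and 100.1 CPM in MGHS 1 to 3, against 15.02, 14.2 and 20.9 CPM in MGNS 1 to 3. Clusters 2 to 5 include cluster 3. Without clusters 3 and 6 to 9, CRISPLD1 overlapped between the groups, with 11.4 CPM in MGHS 3 (adjusted p = 0.206, edgeR). Of the 40, 23 were tested in the adventitial-like nuclei and 32 in clusters 2 to 5, and all had the direction found over all members.

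The test of the difference between these subsets called 3 of 9901 genes (0.0303%, with 5.88% at an unadjusted p under 0.05), POSTN, F13A1 and LOC114108841. POSTN, the matrix protein periostin, had 812, 735 and 826 CPM in adventitial-like nuclei of MGHS 1 to 3, against 559.8, 118 and 224 CPM in MGNS 1 to 3. In clusters 2 to 5 it had 723, 472 and 688 CPM in MGHS 1 to 3, against 1379, 443 and 976 CPM in MGNS 1 to 3. The log2 fold changes differed by 2.13 (SE 0.26, adjusted p = 0.00245, edgeR with the animal as block).

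Against keratinocyte nuclei (9704 nuclei), the difference between MGHS and MGNS differed for 15 of 15388 genes (0.0975%). They included SGCZ, P3H2 (a collagen hydroxylase), SLC39A14, SOD2, C3, FRMD4A, the guidance ligand SEMA3A and the plasma cell gene JCHAIN. JCHAIN averaged 9.72 CPM in MGHS and 14.3 CPM in MGNS keratinocytes. Its log2 difference between the cell sets was -3.39 (SE 0.41, adjusted p = 0.0151, edgeR). C3 averaged 7.18 CPM in MGHS and 7.13 CPM in MGNS keratinocytes, with no lower level in MGHS, and the log2 difference between the cell sets was -1.65 (SE 0.24, adjusted p = 0.0407, edgeR). SOD2 averaged 159.8 CPM in MGHS and 329 CPM in MGNS keratinocytes, not called there, and the log2 difference between the cell sets was -1.62 (SE 0.24, adjusted p = 0.0407, edgeR). RELB, NFKB1 and C1R were not among the 15 and also had lower means in MGHS keratinocytes. They averaged 4.20, 155 and 6.14 CPM in MGHS and 13.9, 460 and 30.4 CPM in MGNS keratinocytes. In keratinocytes of MGHS 1 to 3 the complement list summed to 31.0, 23.9 and 34.1 CPM. In MGNS 1 to 3 it summed to 75.3, 86.5 and 54.2 CPM. The cytokine, chemokine and NF-kB list summed to 661, 492 and 593 CPM in MGHS, against 937, 1134 and 1083 CPM in MGNS. In keratinocyte nuclei alone 0 of 15471 genes were called by edgeR, with 2701 at an unadjusted p under 0.05. Without MGHS 1 the difference was called for 0 genes, and without MGHS 2 or 3 or MGNS 1, 2 or 3 for 12, 26, 9, 19 and 25.

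Against mural or myofibroblast nuclei (320 nuclei, 21 to 88 an animal) the difference was called for 0 of 10061 genes by edgeR, with 529 (5.26%) at an unadjusted p under 0.05. In a wider set added after the data were seen, nuclei with up to 3 of the 8 fibroblast genes were let in, which gave 1302 mural nuclei, and 17 of 11659 genes passed (0.146%). IRAG1 was 1 of them: it averaged 656 CPM in MGHS and 893 CPM in MGNS mural nuclei, against the higher level in MGHS fibroblasts, and the log2 difference was 1.81 (SE 0.20, adjusted p = 0.0059, edgeR). The fibroblast sums of this comparison included the pericyte-like cluster 6. IRAG1 was at 1004 CPM there and between 6.08 and 181 CPM in clusters 1 to 5.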

How the data were processed

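Droplet libraries of nuclear RNA from 6 sheep, 3 MGHS and 3 MGNS, gave the deposited UMI counts per gene and barcode. Per the file headers the counts were made by the authors with Cell Ranger 8.0.0, whereas the submitters' processing notes name version 2.1.1. The sources used here do not give the genome build or annotation behind the counts. The files hold NCBI gene numbers, and all 26741 of 26741 matched the RefSeq gene table of ARS-UI_Ramb_v3.0, used for names only. The members, the gene lists and the tests were chosen with earlier results of these data known, and the fits without some clusters or of single clusters and the wider set of mural nuclei were added after seeing the data.

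A nucleus was kept if it had 500 or more genes and no more than 10% mitochondrial UMIs. No doublet caller was run. The rule's limits on genes of other cells, and fits with 0 of the 8 other genes or without the top 5% of nuclei by UMIs, were used instead. So were the fits without clusters 6 to 9, which still held clusters 3 and 4 with their markers of other cells. These steps cannot show that no mixed nuclei remained. Counts were summed per animal, since the labels give separate, randomly picked sheep, and tested with edgeR 4.0.16 in R 4.3.3 (TMM scaling, genes kept by filterByExpr at its minimum count of 10, quasi-likelihood test with robust dispersions, Benjamini-Hochberg adjustment at 0.05). CPM were computed here from summed counts. Nuclei of 2 kinds were compared in 1 model with the animal as block. Single values were tested with exact permutation tests. Members were clustered with scanpy 1.11.5 (2000 variable genes, 20 principal components, 15 neighbours, Leiden resolution 0.3, seed 1), and a cluster's genes are ranked by the ratio of CPM with 10 CPM added. A cluster was named only if it had at least 3 markers of a fixed list at 2-fold. Clusters 3, 4, 7 and 8 also reached 3 markers of a list but were left unnamed. Alternatives were RLE size factors, DESeq2 1.42.0, limma-voom (limma 3.58.1), no count filter, a replicate block, other limits in the rule, equal numbers of nuclei and each animal left out.

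Named genes are the rule's 18 genes, up to 12 called genes with the smallest p in each direction, the 4 members of each list with the smallest p, the 25 leading genes and 7 named by earlier results. Other called genes, and genes such as JUN, CFD and POSTN, were chosen after their values were seen. In data simulated for the MGHS against MGNS comparison in fibroblast nuclei (11376 genes), 22.45% of 98 genes changed by 1 on the log2 scale and 86.87% of 99 changed by 2 were recovered, with 7 false calls. The labels do not say that replicate numbers pair the animals, so the main fit had no replicate block.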

Additional observations from a re-analysis of the deposited data

Results flagged for a closer look

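The genes here differed in their MGHS against MGNS difference between fibroblast nuclei and another set of nuclei, by a test of that difference in edgeR with the animal as block and Benjamini-Hochberg adjustment over all genes tested. Each value is the log2 difference in fibroblasts minus that in the other set, and the causes were not tested.

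Against keratinocyte nuclei, SGCZ differed by 5.45 (SE 0.54, adjusted p = 0.0104), from levels near 2 CPM in keratinocytes of both groups. P3H2, which hydroxylates collagen, differed by 1.99 and the guidance ligand SEMA3A by 1.86 (adjusted p = 0.0407 for both). P3H2 averaged 117 CPM in MGHS and 213 CPM in MGNS keratinocytes, above its 109 and 47.3 CPM in fibroblasts. Among the members P3H2 was at 476 CPM in the pericyte-like cluster 6 and at most 94.2 CPM in clusters 1 to 5. FRMD4A, a scaffold protein of cell polarity, differed by 1.55 (adjusted p = 0.0485). Among the members it was at 1516 CPM in cluster 6 and between 60.5 and 192 CPM in clusters 1 to 5. Neither SEMA3A nor FRMD4A was among the 40 genes called in fibroblasts. The metal transporter SLC39A14 differed by -1.78, the complement component C3 by -1.65 and the superoxide dismutase SOD2 by -1.62 (adjusted p = 0.0407 for each). The plasma cell gene JCHAIN, a leading gene of cluster 4, differed by -3.39 (adjusted p = 0.0151).

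The planned test against mural or myofibroblast nuclei called 0 genes by edgeR, with 529 at an unadjusted p under 0.05. Against a wider set of such nuclei, added after the data were seen, IRAG1 differed by 1.81 (adjusted p = 0.0059) and the adhesion receptor ADGRF5 by 2.33 (adjusted p = 0.0393). IRAG1 was at 1004 CPM in the pericyte-like cluster 6, which the fibroblast sums included, and between 6.08 and 181 CPM in clusters 1 to 5. Among the members ADGRF5 was at 277 CPM in the pericyte-like cluster 6 and between 0 and 5.58 CPM in clusters 1 to 5, and it was not tested without clusters 6 to 9. It averaged 88.1 CPM in MGHS and 97.1 CPM in MGNS mural nuclei.

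Between adventitial-like and other fibroblast nuclei, POSTN differed by 2.13 (adjusted p = 0.00245). F13A1, a subunit of coagulation factor XIII, differed by -3.16 (adjusted p = 0.037). It averaged 7.17 CPM in MGHS and 49.98 CPM in MGNS adventitial-like nuclei, and 622 CPM in MGHS and 430.3 CPM in MGNS nuclei of clusters 2 to 5.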

How the results depend on the processing

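The count of 40 called genes depended on the tool and the animals. It was 367 with DESeq2, 169 with limma-voom, 282 with no count filter, 20 in adventitial-like nuclei, 1 in clusters 2 to 5, 0 without clusters 3 and 6 to 9 (1152 genes at an unadjusted p under 0.05, with 130 nuclei left in MGHS 3), 23 without clusters 4 and 6 to 9, and between 1 and 168 with 1 animal left out. With the replicate block it was 0 (1411 genes at an unadjusted p under 0.05). Deviations of same-numbered animals from their group means correlated at -0.12, 0.002 and -0.03. With 3 animals a group these values cannot show whether the numbers pair the animals, and the labels do not say so. RLE size factors gave 39, at least 5 of the 8 genes 28, 0 of 8 other genes 41, equal numbers of nuclei 43, without the top 5% of nuclei 57, and without clusters 6 to 9 37. None of the 40 reversed in any of these, which share their animals and nuclei with the main fit and so give no separate support. Of genes not called, 3 reversed: LTBP1 at 0.321 and CCN1 at -0.449 in adventitial-like nuclei, and IGF1 at 0.821 in clusters 2 to 5. The share of fibroblast nuclei stayed 0.814 to 2.40 percentage points higher in MGHS under other limits and 1.05 to 3.23 with 1 animal left out, and no setting with all animals gave an exact p below 0.2. The difference from keratinocytes was called for 15 genes (12 with RLE or with at least 5 of 8 genes, 0 to 26 with 1 animal left out). That from mural nuclei was called for 0 genes, against 7 with at least 5 of 8 genes, 17 with the wider mural set, added after the data were seen, and 0 to 2 with 1 animal left out. Precision is limited by 3 animals a group and by 1235304 to 2306906 fibroblast UMIs an animal.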
